A study of Mus musculus with 6 samples.

Results

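The EGR family and its corepressors comprised 5 genes on the arrays, Egr1, Egr2, Egr3, Nab1 and Nab2, of 22630 genes tested. They were found through the RefSeq accession that each probe carries, which gave 6 probes of 55681, with 2 probes for Nab2 and 1 for each other gene. All 6 probes were well above background in both channels on all 6 arrays, so none entered through its level in one group alone. The cells were bone marrow hematopoietic stem cells (HSCs) of mice with and without CDK6, a kinase of the cell cycle, and the study asked about its part in stem cell activation. Each of 6 two-colour arrays carried a Cdk6-/- sample in Cy5 and a wild-type pool of the same treatment in Cy3. PolyI:C, a mimic of viral double-stranded RNA that sets off an interferon response, had been given on 3 arrays (Cdk6-/- with polyI:C against sorted wild-type HSCs with polyI:C). The other 3 arrays were untreated (untreated Cdk6-/- against sorted untreated wild-type HSCs). The sources used here do not give the Cdk6 allele, the mouse strain, age and sex, the dose and time of polyI:C or the sorting gate. A pair of numbers stands in 5 of the sample titles and a single number in that of untreated array 3, and how many mice gave a sample is not stated.

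EGR1, EGR2 and EGR3 are zinc finger transcription factors of the immediate early kind. Growth factor, cytokine and stress signals that pass through the MAP kinases ERK1 and ERK2 to the ELK factors and SRF switch their genes on within minutes, and the proteins bind GC-rich sites in DNA. NAB1 and NAB2 bind EGR proteins and repress the genes they occupy, in part through the NuRD complex, and Nab2 is itself induced by EGR proteins, which closes a feedback loop. In mouse bone marrow Egr1 is known for holding HSCs in quiescence and in their niche, and EGR1, EGR2 and NAB2 are known for favouring the macrophage over the neutrophil fate in myeloid progenitors.

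Promoters are shown because SRF binds the CArG box and EGR proteins bind their own site, which are the input and the feedback of this loop. RefSeq windows (GRCm38.p6) of 250 bases before to 50 bases after a transcript's start were matched for 3 of the 5 genes, Egr2, Nab1 and Nab2. Egr2 has 5 windows, of which 4 hold a CArG box. One of these, chr10:67537619-67537918 on the + strand, and the Nab1 window, chr1:52500399-52500698 on the - strand, read as follows, 5′ to 3′, with motif matches in capitals.
Egr2: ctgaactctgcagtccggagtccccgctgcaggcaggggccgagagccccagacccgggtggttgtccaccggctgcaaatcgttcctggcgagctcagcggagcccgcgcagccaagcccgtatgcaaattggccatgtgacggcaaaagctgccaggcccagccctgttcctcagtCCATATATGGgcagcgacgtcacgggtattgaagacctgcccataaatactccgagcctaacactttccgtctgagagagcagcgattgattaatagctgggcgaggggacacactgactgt
Nab1: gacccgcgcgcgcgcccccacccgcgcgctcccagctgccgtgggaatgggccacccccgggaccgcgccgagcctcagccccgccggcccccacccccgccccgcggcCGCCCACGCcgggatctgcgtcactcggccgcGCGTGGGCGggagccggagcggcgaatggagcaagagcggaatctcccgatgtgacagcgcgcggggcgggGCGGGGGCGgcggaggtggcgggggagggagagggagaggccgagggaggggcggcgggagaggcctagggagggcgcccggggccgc
The CArG box of the Egr2 window shown, CCATATATGG, begins 72 bases before the start, and 3 of the 5 windows hold it. Those 3 windows overlap and hold the same site of the genome, so they are not separate boxes. Another of the 5 windows holds CCTTTTTTGG instead. Such a box (CC, then 6 bases of A or T, then GG, on either strand) is found in 1.63% of 32851 windows of this length. The Nab1 window holds 3 matches to the EGR site GCGNGGGCG, searched on both strands, which 5.55% of windows hold. The cyclic AMP response element TGACGTCA, present in 1.79% of windows, was found in none of the member windows, and the Nab2 window (chr10:127666654-127666953, - strand) holds none of these motifs. Matches are letters only, and no binding was measured.

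Each wild-type pool was 1 sample hybridised 3 times, so its spread is technical, and p-values measure the spread between the Cdk6-/- samples alone. No dyes were swapped, so a dye bias of a probe cannot be told apart from genotype in a ratio. Only a bias shared by all arrays cancels where polyI:C and untreated ratios are compared. The HSC markers Kit, Ly6a, Slamf1, Procr, Mecom, Hlf and Fgd5 were well above background in both channels on 6 of 6 arrays. The 11 tested granulocyte markers were above background in the Cdk6-/- channel of every array too. PolyI:C array 3 stood apart: it was alone on its slide, and its ratios correlated with those of polyI:C arrays 1 and 2 at 0.13 and 0.22 over genes, while those 2 correlated at 0.56 with each other. On this array 76.5% of spots were well above background in Cy5, against 47.0 to 55.7% on the others. In Cy3 it was 75.6%, against 54.4 to 58.7%. PolyI:C array 3 was also read with another grid file. It and untreated array 3 were also low in Xist, which is expressed from the inactive X chromosome, with log2 ratios of -3.42 and -3.98, against 0.42 to 1.87 on the other arrays. The single Cdk6 probe had log2 ratios of -0.26, -0.44 and -1.28 on the polyI:C arrays, where it was well above background in both channels, and 0.40, -0.41 and 0.24 on the untreated arrays, where it was not. Since the sources do not place this probe inside or outside the deletion, these values are no check of the genotype. In these bulk samples fewer cells of a type and less RNA per cell cannot be told apart.

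Egr1 was higher in Cdk6-/- HSCs than in wild-type pools on all 6 arrays, by about the same amount with and without polyI:C. The log2 ratio, Cdk6-/- over wild type, was 1.37, 1.09 and 1.65 on polyI:C arrays 1, 2 and 3, and 1.28, 1.46 and 1.55 on untreated arrays 1, 2 and 3. The groups of ratios overlapped. A ratio above 0 on all 3 arrays of a treatment was found for 16.4% of genes with polyI:C and 20.9% untreated. After polyI:C the mean was 1.37 (SE 0.18, 95% confidence interval 0.98 to 1.76), which is 2.59-fold, with a limma adjusted p of 0.0105 over all genes. In untreated cells the mean was 1.43 (SE 0.18, interval 1.04 to 1.82), which is 2.69-fold, with a limma adjusted p of 0.00149. Among the 22630 genes, 23 had a higher mean ratio than Egr1 after polyI:C and 17 in untreated cells. Egr1 was 1 of 18 genes called higher in both treatments, 0.0795% of those tested.

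After polyI:C, Egr1 and Egr3 passed the threshold (adjusted p under 0.05), both higher, beside 0.981% of all genes in either direction and 0.327% higher. In untreated cells Egr1 alone of the 5 passed, higher, beside 13.0% of all genes in either direction and 3.07% higher. The split over all genes moved with the scaling. With polyI:C it was 74 higher and 148 lower with loess, and 2333 higher and 238 lower with median centring, while untreated it was 694 higher and 2250 lower with loess, and 4863 higher and 1333 lower with median centring. Egr1 passed in both treatments under either scaling. The Egr1 call after polyI:C ended with the scanner software's processed signals (1.39, limma adjusted p 0.0579), without polyI:C array 1 (1.37, adjusted p 0.116), without polyI:C array 2 (1.51, adjusted p 0.0601), and without both arrays low in Xist (1.23, adjusted p 0.0885). Over all genes those settings called 34, 7, 21 and 0 after polyI:C. The untreated call held under every alternative run, with the highest adjusted p at 0.0234.

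**Figure D1:**
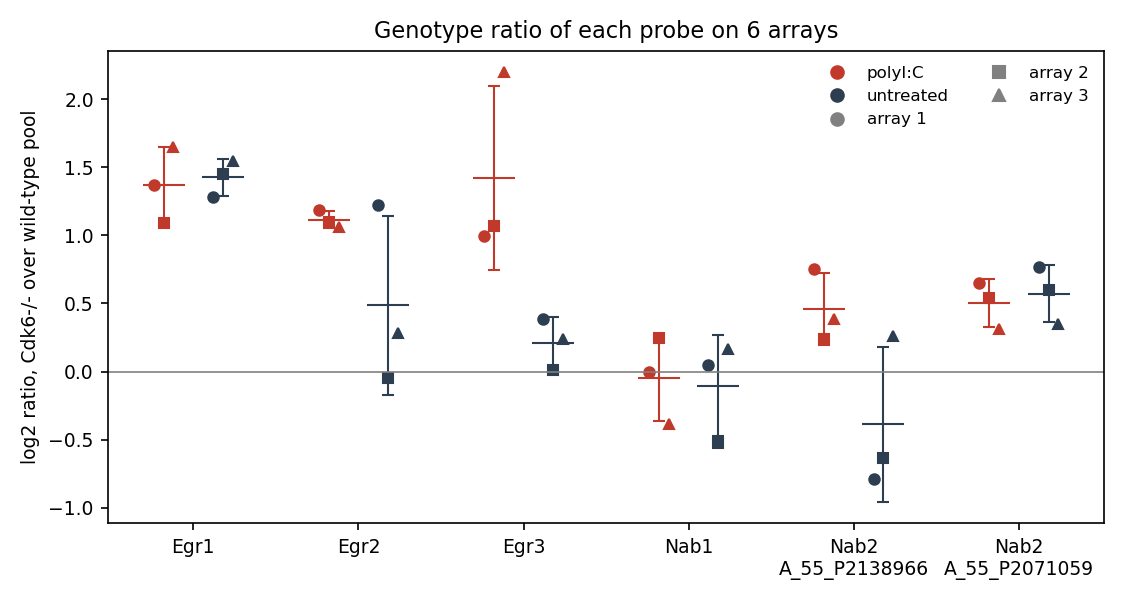
The log2 ratio of Cdk6-/- to wild type is plotted for each probe on each array, with polyI:C in red and untreated in dark blue, symbols for array 1, 2 and 3, a line at the mean and a bar of 1 SD over 3 arrays. Egr1 lies between 1.09 and 1.65 on all arrays, and the polyI:C and untreated values are apart for Egr3.

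Egr1 levels were higher in the Cdk6-/- channel than in the wild-type channel and overlapped between treatments. The log2 intensity of Egr1 was 12.51, 12.44 and 12.26 in Cdk6-/- HSCs with polyI:C and 12.21, 12.75 and 12.54 in untreated Cdk6-/- HSCs. The wild-type pools gave 11.14, 11.35 and 10.61 with polyI:C and 10.93, 11.29 and 10.99 untreated. Every Cdk6-/- value was above every wild-type value, in the same channels that give the ratio. The wild-type values came from 2 pools, and Cdk6-/- was in Cy5 on every array. The share of all genes set apart in this way was not counted. Within a genotype the treatments overlapped. In Cdk6-/- cells the level with polyI:C over untreated was -0.10 on the log2 scale (SE 0.31, interval -0.80 to 0.61, limma adjusted p 0.960). The ratio with polyI:C minus the untreated ratio was -0.06 (SE 0.25, interval -0.61 to 0.50, limma adjusted p 0.946, two-sided exact permutation p 0.9).

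**Figure D2:**
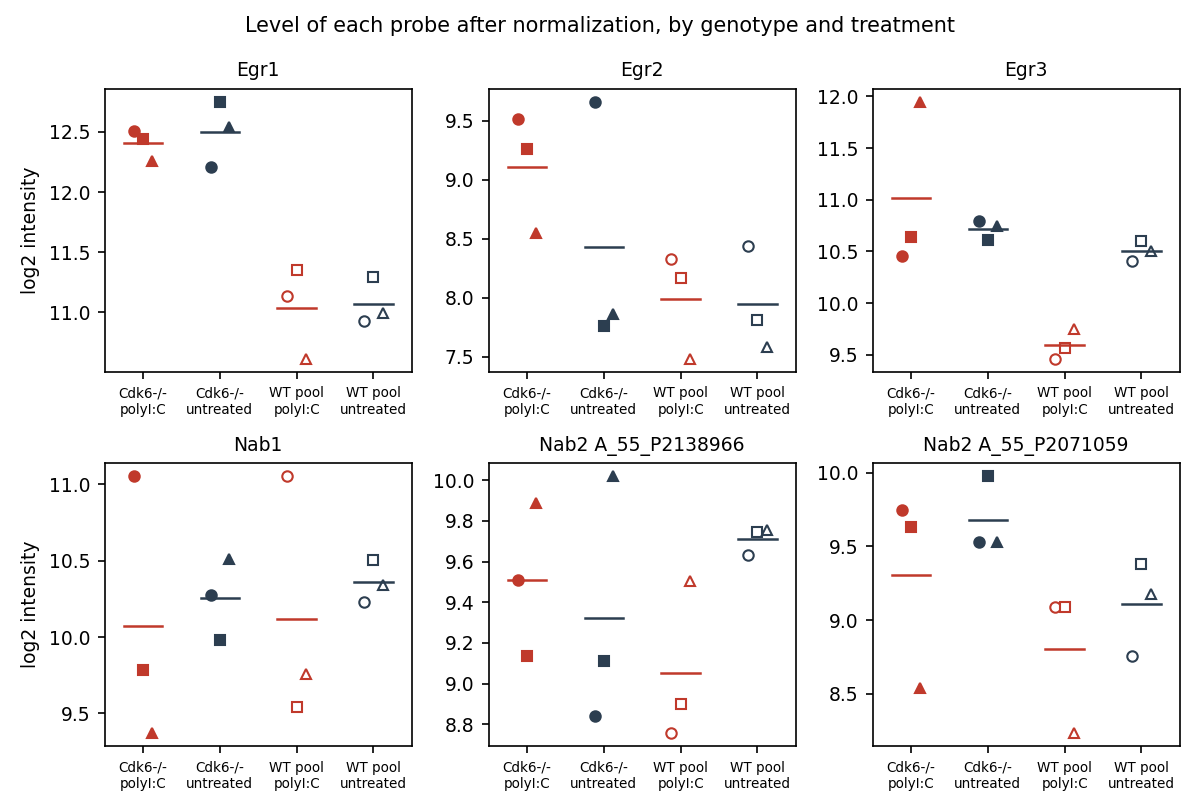
Normalized log2 intensity of each probe is plotted by genotype and treatment, with filled symbols for Cdk6-/- samples, open symbols for wild-type pools and a line at the mean of 3 arrays; each panel has its own axis, which does not start at 0. Egr1 runs from 12.21 to 12.75 in Cdk6-/- samples (Cy5) against 10.61 to 11.35 in the pools (Cy3), and the polyI:C wild-type pool is low for Egr3.

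Egr2, also called Krox20 and known for its part in hindbrain and myelin formation, had log2 ratios of 1.18, 1.10 and 1.06 on the polyI:C arrays. On the untreated arrays they were 1.22, -0.05 and 0.28. The polyI:C arrays were nearly identical, while untreated array 1 was as high as they were and the other two were near 0. The mean after polyI:C was 1.11 (SE 0.23, interval 0.60 to 1.63), which is 2.17-fold, and just missed the threshold with a limma adjusted p of 0.0586. In untreated cells it was 0.49 (SE 0.23, interval -0.03 to 1.001, limma adjusted p 0.199). The polyI:C ratio passed in a fit of the polyI:C arrays only (limma adjusted p 0.0480) and without untreated array 1 or 2 (0.0312 and 0.0419). It also passed with array weights (0.00235), with median centring (0.00437) and with the stricter filter on dim probes (0.0387). Without polyI:C array 1, 2 or 3 it did not pass (adjusted p 0.328, 0.287 and 0.155), nor without untreated array 3 (0.0989). Leaving out the low-Xist arrays (0.217) or the dim-probe filter (0.105) gave no call. Neither did the deposited value table (0.124) or processed signals (0.122). Without untreated array 1 the untreated ratio was 0.12 and the difference between treatments 0.996, and without untreated array 2 they were 0.75 and 0.36, none past the threshold. The difference between treatments was 0.63 (SE 0.33, interval -0.10 to 1.36, limma adjusted p 0.373, exact permutation p 0.4).

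Egr2 signal came near background on some arrays. Its Cy5 spot on untreated array 2 was 4.31 times the local background, and that array had the lowest ratio. The log2 intensity was 9.51, 9.26 and 8.55 in Cdk6-/- HSCs with polyI:C and 9.66, 7.77 and 7.87 in untreated Cdk6-/- HSCs. The wild-type pools gave 8.33, 8.16 and 7.48 with polyI:C and 8.44, 7.81 and 7.58 untreated, which overlap. Untreated array 1 was the high one of its group for the Cdk6-/- level, as for the ratio. The level in Cdk6-/- cells with polyI:C over untreated was 0.68 (SE 0.54, interval -0.53 to 1.89, limma adjusted p 0.771), and 0.34 to 1.29 leaving out 1 array.

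Egr3 was higher in Cdk6-/- than in wild-type HSCs after polyI:C, while its untreated ratio did not pass the test. Its log2 ratio was 0.998, 1.07 and 2.20 on the polyI:C arrays and 0.38, 0.01 and 0.24 on the untreated arrays. The 2 groups did not overlap, and polyI:C array 3 was far above the rest. The polyI:C mean was 1.42 (SE 0.24, interval 0.89 to 1.95), which is 2.68-fold, with a limma adjusted p of 0.0283. The untreated mean was 0.21 (SE 0.24, interval -0.32 to 0.74, limma adjusted p 0.604). After polyI:C, 18 genes had a higher mean ratio than Egr3 and 76 a higher one than Egr2.

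The polyI:C ratio of Egr3 was above the untreated one by 1.21 (SE 0.34, interval 0.46 to 1.96). That difference did not pass over all genes (limma unadjusted p 0.00488, adjusted p 0.103), while 1.81% of genes did and 1.60% with the polyI:C ratio higher. The two-sided exact permutation p was 0.1, the smallest that 3 arrays against 3 allow, and groups of ratios did not overlap in 22.8% of genes, in 14.3% with polyI:C higher. Within a slide the difference was 0.69 on slide 1 (polyI:C array 1 minus the untreated arrays 1 and 3) and 1.05 on slide 2 (array 2 of each treatment). Without polyI:C array 3 the Egr3 polyI:C ratio was 1.03 (limma adjusted p 0.0518) and the difference 0.82 (adjusted p 0.141). In a fit of the polyI:C arrays only, Egr3 did not pass (adjusted p 0.0739).

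The log2 intensity of Egr3 was 10.46, 10.64 and 11.95 in Cdk6-/- HSCs with polyI:C and 10.79, 10.61 and 10.75 in untreated Cdk6-/- HSCs. The wild-type pools gave 9.46, 9.57 and 9.75 with polyI:C and 10.41, 10.60 and 10.51 untreated. The Cdk6-/- levels overlapped between treatments and the wild-type ones did not, with every hybridisation of the polyI:C pool below every one of the untreated pool. The pools thus differed by -0.91 in polyI:C over untreated, 0.532-fold, and between -0.81 and -1.09 under 4 other scalings. With 1 pool per treatment this has no test, and the hybridisations of the pools did not overlap in 42.5% of all genes, in 23.2% with polyI:C lower. In Cdk6-/- cells Egr3 with polyI:C over untreated was 0.30 (SE 0.43, interval -0.66 to 1.26, limma adjusted p 0.898).

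Markers of monocytes and macrophages also had their highest median ratio on polyI:C array 3. The median log2 ratio of 11 tested of 12 listed markers was 0.29, 0.34 and 1.03 on polyI:C arrays 1, 2 and 3 and -0.31, 0.001 and -1.04 on untreated arrays 1, 2 and 3. Their summed linear intensity in Cdk6-/- samples was 17769 to 33128 with polyI:C, with the highest value on array 3, and 20971 to 29054 untreated. In the wild-type pools it was 17751 to 22378 with polyI:C and 30505 to 32351 untreated, so the pools did not overlap for these markers, as for Egr3. Of the 11, between 8 and 11 were well above background in Cdk6-/- samples with polyI:C and 10 or 11 untreated. Neither trait was particular to this list. Granulocyte markers too had their highest median ratio on polyI:C array 3 (1.32). Pool sums did not overlap between treatments for any other marker list either, save that of mast cells and basophils. They were higher with polyI:C for T and NK cell and for megakaryocyte markers, and lower for the rest. The part of such cells in the Egr3 result was not tested.

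**Figure D3:**
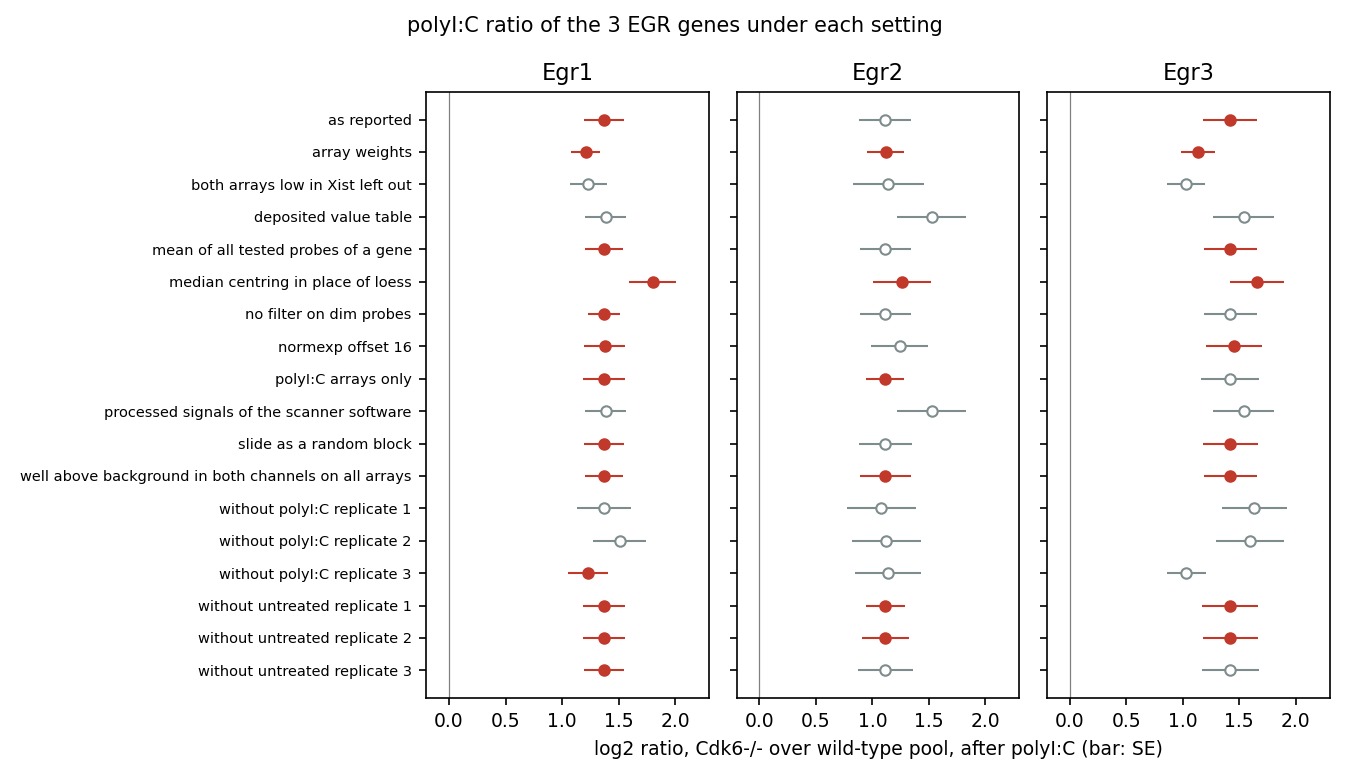
The mean log2 ratio of Cdk6-/- to wild type after polyI:C is plotted for Egr1, Egr2 and Egr3 as reported and under each alternative (bar, SE); filled red symbols passed an adjusted p of 0.05 and open grey symbols did not. Every value was above 1, with Egr1 between 1.21 and 1.80, while the calls varied with the setting.

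Nab1 did not pass the test in any comparison. Its log2 ratio was 0.00, 0.24 and -0.39 on the polyI:C arrays and 0.05, -0.52 and 0.17 on the untreated arrays. The values scattered around 0 in both groups. The mean was -0.05 after polyI:C (SE 0.20, interval -0.49 to 0.40, limma adjusted p 0.947) and -0.10 in untreated cells (SE 0.20, interval -0.55 to 0.34, limma adjusted p 0.777), and with median centring in place of loess both were above 0. After polyI:C the interval runs from 0.710-fold to 1.32-fold. Nab1 intensity was 11.05, 9.78 and 9.37 in Cdk6-/- HSCs with polyI:C and 10.27, 9.98 and 10.51 in untreated ones. The pools gave 11.05, 9.54 and 9.76 with polyI:C and 10.23, 10.50 and 10.34 untreated. PolyI:C array 1 was high in both channels, so its ratio was 0.

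The 2 Nab2 probes gave unlike ratios in untreated cells. Probe A_55_P2138966, which stands for the gene in the fit because its mean intensity was the higher, had log2 ratios of 0.75, 0.24 and 0.38 on the polyI:C arrays and -0.79, -0.63 and 0.26 on the untreated arrays. Probe A_55_P2071059 had 0.65, 0.54 and 0.31 on the polyI:C arrays and 0.77, 0.60 and 0.35 on the untreated arrays. The second probe was above 0 on all 6 arrays, whereas the first was below 0 on 2 of them. The accessions of the probes name different Nab2 transcripts, and the sources used here do not give where each probe lies.

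For probe A_55_P2138966 the gene fit gave 0.46 after polyI:C (SE 0.23, interval -0.04 to 0.96, limma adjusted p 0.421) and -0.39 untreated (SE 0.23, interval -0.89 to 0.11, limma adjusted p 0.294). The difference between treatments was 0.85 (SE 0.32, interval 0.14 to 1.55, limma adjusted p 0.213, exact permutation p 0.2). In the fit over 31802 probes, A_55_P2071059 gave 0.50 after polyI:C (SE 0.18, limma adjusted p 0.270) and 0.57 untreated (SE 0.18, limma adjusted p 0.0598), with a difference of -0.07 (SE 0.25, adjusted p 0.929). Averaging both probes turned the untreated ratio of Nab2 to 0.09. Neither probe passed the test in either treatment with loess, while A_55_P2071059 passed untreated with median centring, at 0.92 (limma adjusted p 0.0082). The untreated ratio of A_55_P2138966 was -0.04 with median centring, -0.18 without untreated array 1 and -0.71 without untreated array 3, never past the threshold.

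Levels of Nab2 told the probes apart in the wild-type pools. With A_55_P2138966 the log2 intensity was 9.51, 9.14 and 9.89 in Cdk6-/- HSCs with polyI:C and 8.84, 9.11 and 10.02 in untreated ones, and the pools gave 8.76, 8.90 and 9.51 with polyI:C and 9.63, 9.74 and 9.76 untreated. The pools did not overlap between treatments for this probe, as for 42.5% of all genes. With A_55_P2071059 it was 9.74, 9.63 and 8.54 in Cdk6-/- HSCs with polyI:C and 9.53, 9.98 and 9.53 in untreated ones, and the pools gave 9.09, 9.09 and 8.23 with polyI:C and 8.76, 9.38 and 9.18 untreated, which overlap. In polyI:C over untreated the pools differed by -0.66 with the first probe and by -0.30 with the second.

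None of the 5 genes passed the test of polyI:C over untreated within Cdk6-/- cells, where 0.163% of all genes did, and the unadjusted limma p of all 5 was above 0.05. Their Cdk6-/- levels overlapped between treatments, while those of 16.9% of all genes did not. None passed for the difference of ratios, where 2 of the 5, Egr3 and Nab2, had an unadjusted limma p under 0.05, as did 3737 of the 22630 genes.

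Among other genes of the pathway, the immediate early genes were called in 1 direction only. Of 18 tested immediate early genes (19 listed), 7 were higher in Cdk6-/- HSCs and none lower after polyI:C, with a median log2 ratio of 0.84, against -0.02 over all genes. In untreated cells 4 were higher and none lower, with a median of 0.38, against -0.05 over all genes. Of all genes, 0.327% were higher and 0.654% lower after polyI:C, and 3.07% higher and 9.94% lower untreated. Nr4a1 and Nr4a2, which encode orphan nuclear receptors, were higher in both treatments, at 2.23 and 1.29 after polyI:C and 1.16 and 1.86 untreated. Fosb, a partner of JUN in AP-1, was higher in both too, at 1.09 after polyI:C and 0.83 untreated. Zfp36, which drives decay of cytokine mRNAs, was higher at 1.24 after polyI:C and was 0.48 untreated without passing. Ier3, an early gene tied to cell survival, was 0.53 after polyI:C without passing and was higher at 0.95 untreated. Btg2, Fos and Klf6, named after their values were seen, made up the other calls after polyI:C, at 1.12, 0.92 and 1.10. No gene of this list passed for the difference between treatments. Without polyI:C array 3 the count after polyI:C was 2, Nr4a1 at 1.97 and Zfp36 at 1.31, beside 24 of all genes higher. It was 0 when the 2 low-Xist arrays were left out, where no gene at all passed, with a median of 0.77 either way. The untreated count was 5 without the low-Xist arrays, beside 386 of all genes higher. Median centring gave 15 higher and none lower in each treatment. Over all 22630 genes median centring gave 2333 higher after polyI:C and 4863 untreated. It also moved the median of all genes to 0.21 after polyI:C and 0.30 untreated.

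Egr4, the remaining family member, was well above background on 1 of 6 arrays in each channel and was not tested, and neither was Wt1. Of the 7 other tested zinc finger genes with GC-rich sites, none was higher untreated (median -0.26), beside 3.07% of all genes. After polyI:C 3 were higher (median 0.97), beside 0.327% of all genes. These were Klf2, at 1.24 after polyI:C and -0.27 untreated, Klf4, at 1.21 after polyI:C and 0.60 untreated, and Klf6, at 1.10 after polyI:C and 0.45 untreated. KLF2 is known for quiescence of lymphocytes, KLF4 for monocyte differentiation and KLF6 as an immediate early factor. None of the 3 passed without polyI:C array 3, where they were at 1.17, 1.15 and 0.87 and 24 of all 22630 genes were higher. Median centring gave 4 higher after polyI:C and 3 untreated, none lower, and turned the untreated median to 0.27. That scaling called 2333 of all 22630 genes higher after polyI:C and 4863 untreated. Klf6 is also among the immediate early genes and Klf4 in the myeloid list below.

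Regulators upstream of the EGR genes showed no call after polyI:C among 20 tested (median 0.01). Of all genes 0.981% passed there, so no call in a list of 20 is near that share. In untreated cells 2 were higher, Crem at 1.84 and Elk1 at 0.98, and 2 lower, Creb1 at -1.26 and Mapk3 at -0.69 (median -0.09). Of all genes, 3.07% were called higher and 9.94% lower there. After polyI:C the ratios of Crem, Elk1, Creb1 and Mapk3 were 0.41, 0.44, -0.38 and 0.45, none past the test. Under median centring Mapk3 was -0.22 untreated and no longer passed, and the untreated median turned to 0.39, with 5 genes higher and 1 lower. After polyI:C that scaling gave 4 higher and none lower (median 0.41). Over all 22630 genes it gave 4863 higher and 1333 lower untreated, and 2333 higher and 238 lower after polyI:C. Crem and Creb1 encode factors of the cyclic AMP response element, Elk1 an SRF partner and Mapk3 the kinase ERK1. Among 13 genes of the NuRD complex and the coactivators Ep300 and Crebbp, none passed after polyI:C, again near the share of all genes. Gatad2a, a NuRD subunit, was higher untreated at 1.04, beside 3.07% of all genes, against 0.13 after polyI:C without passing. With median centring 2 of the 13 were higher after polyI:C and 4 untreated, with none lower (medians 0.31 and 0.46).

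Described EGR targets were called in both directions in untreated cells, where 3.07% of all genes were higher and 9.94% lower. After polyI:C 0.327% of all genes were higher and 0.654% lower. Of 32 tested of 34 listed, one of which is Nab2, 2 were higher and none lower after polyI:C (median 0.40), and 2 were higher and 4 lower in untreated cells (median -0.13). Id3, an inhibitor of basic helix-loop-helix factors, was higher after polyI:C at 1.42 and was -0.47 untreated. The cyclin gene Ccnd1 was higher untreated at 0.93, against 0.82 after polyI:C without passing. Il2rb, a cytokine receptor chain, Fn1, a matrix protein, and Id2, a relative of ID3, were lower untreated at -1.84, -1.61 and -0.79. After polyI:C they had -0.25, 0.04 and 0.77 without passing. The other calls, named after their values were seen, were Plaur, higher at 0.97 after polyI:C, and Vegfa and Ptgs2, at 0.77 and -0.97 untreated. Both calls after polyI:C were lost without polyI:C array 3, with Id3 at 1.13 and Plaur at 0.80, where 24 of all genes were higher. In untreated cells 1 was higher and 1 lower without the low-Xist arrays, beside 386 higher and 1253 lower of all genes. Median centring gave 7 higher and 3 lower untreated, turned the median to 0.18 and left Id2 at -0.42 without passing. With median centring 13 of the 32 were higher after polyI:C and none lower (median 0.61). Of all 22630 genes it called 2333 higher after polyI:C and 4863 untreated. Markers of B cells and of endothelial and stromal cells were also lower untreated, 7 of 9 tested with a median of -1.59 and 6 of 9 with a median of -1.08. After polyI:C none of either list passed, with medians of 0.05 and -0.11. The summed intensity of B cell markers was 4036 to 5391 with polyI:C and 6667 to 12639 untreated in Cdk6-/- samples, and 4745 to 5194 with polyI:C and 27140 to 29949 untreated in the pools. That of the endothelial and stromal markers was 5509 to 6627 with polyI:C and 7273 to 9451 untreated in Cdk6-/- samples, and 6037 to 6949 with polyI:C and 16077 to 17689 untreated in the pools. Their part in the target values was not tested.

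Genes listed for the myeloid circuit of EGR and NAB had a higher median ratio with polyI:C than untreated. The untreated median was below 0 with loess and at 0.20 with median centring. This list mixes regulators, macrophage genes and neutrophil genes, so its median is no measure of EGR or NAB activity. Of 15 tested, Klf4 alone was higher after polyI:C (median 0.67), beside 0.327% of all genes. In untreated cells, where 9.94% of all genes were lower, 3 of the 15 were lower and none higher (median -0.71). Those 3 were Spi1, the myeloid master regulator PU.1, at -1.24, Irf8, a monocyte factor, at -0.98, and Camp, a neutrophil granule protein, at -0.97. Their ratios after polyI:C were 0.34, 0.63 and 0.65 without passing. None of the 3 untreated calls held with median centring, where Spi1 was -0.52, Irf8 -0.54 and Camp 0.20. Of these 3 Spi1 alone passed without the low-Xist arrays, at -1.05, where 1253 of all genes were lower. The Klf4 call was lost without polyI:C array 3, where 24 of all genes were higher after polyI:C. With median centring 12 of the 15 were higher after polyI:C (median 1.15) and 4 untreated. All genes called higher with that scaling were 2333 of 22630 after polyI:C and 4863 untreated. Cebpe, needed for late granulocyte maturation, had ratios of 0.87 after polyI:C and -0.87 untreated, neither past the test. This list shares genes with the granulocyte markers, whose median ratio was 0.54, 0.63 and 1.32 on polyI:C arrays 1, 2 and 3 and -0.62, -0.21 and -1.49 on untreated arrays 1, 2 and 3. The summed intensity of those markers in Cdk6-/- samples was 204131 to 261664 with polyI:C and 203553 to 298124 untreated, which overlap. In the wild-type pools it was 116495 to 161654 with polyI:C and 370060 to 525215 untreated, which do not. The part of such cells in the myeloid values was not tested. Within Cdk6-/- cells no gene of any of these lists passed for polyI:C over untreated.

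**Figure D4:**
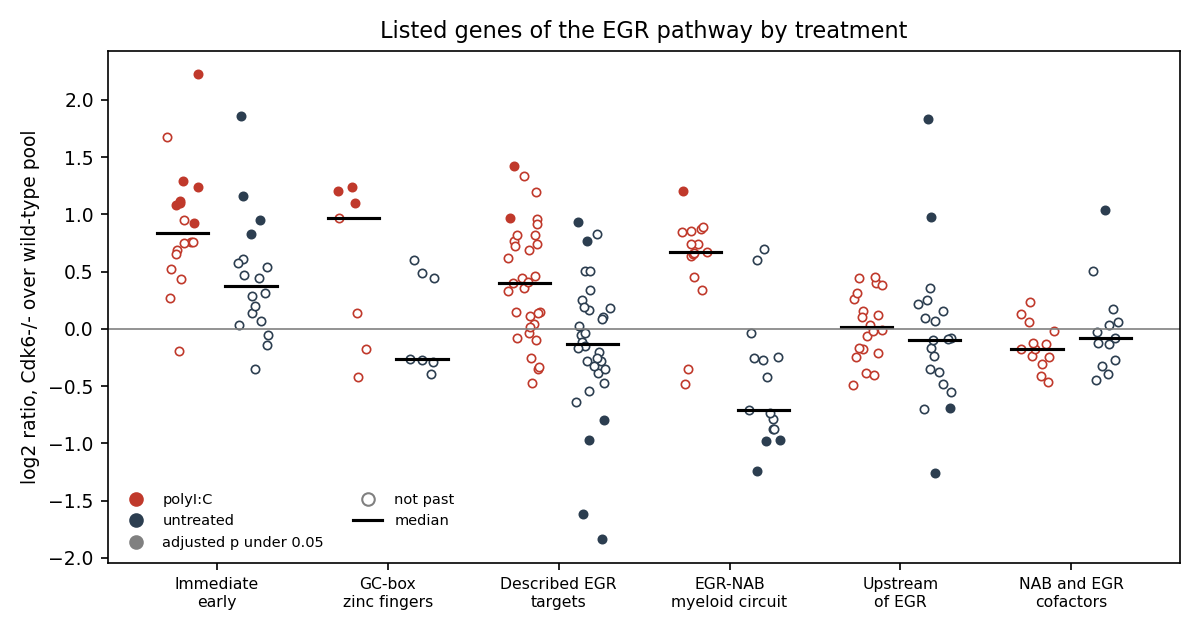
Each point is a listed gene's mean log2 ratio of Cdk6-/- to wild type, with polyI:C in red left of untreated in dark blue, filled where the adjusted p was under 0.05, and a black line at the list's median. Immediate early genes have medians of 0.84 with polyI:C and 0.38 untreated, and the myeloid list has 0.67 with polyI:C and -0.71 untreated, which median centring turned to 0.20.

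Genes with the most similar ratios across the 6 arrays were ranked by root mean square distance over 13564 genes with a symbol. Nearest to Egr1 were Nr4a2 (distance 0.399), Dusp18 (0.407), Dusp5 (0.443), Tnfrsf12a (0.470) and Jmjd6 (0.488). Nr4a2 had a mean ratio of 1.29 after polyI:C and 1.86 untreated, and Dusp5, a phosphatase of ERK, had 1.34 after polyI:C and 1.13 untreated. Egr2 was nearest to Kdelr3 (0.194) and Sgk1 (0.312), and Egr3 to Trim71 (0.292) and Cd5l (0.293). Nab1 was nearest to Fbxo11 (0.107) and Myo18a (0.120), and Nab2 to Acat3 (0.200) and Cnih2 (0.201). These distances cover 6 arrays that share 2 wild-type pools and are a description with no test.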

How the data were processed

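The members and the gene lists were chosen with earlier results of these data known. Per the labels' protocols, RNA went through whole transcriptome amplification and was labelled with guanine-binding platinum dyes. Per the file headers, Agilent Feature Extraction 11.5.1.1 read the slides, with probes annotated on mm9. Median spot and background intensity are deposited per array, beside processed-signal intensity, a log10 ratio (deposited, used here for a check of direction only) and flags of other kinds. The deposited value table is in log2 and equals Cy5 over Cy3 of the processed signals to within 2.5e-06 for probes with a single spot. The sources used here do not state the authors' test of genes.

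In R 4.3.3 with limma 3.58.1 and statmod 1.5.0, background was corrected by normexp (offset 50) on median signals and each array's ratios by loess. Control spots, and outlying or non-uniform ones (0.657%), were left out, and repeated spots averaged. Of 55681 probes, 31802 were tested, having a signal well above background in either channel throughout at least 1 group of 3 arrays. A gene took its tested probe of highest mean intensity, leaving 22630 genes. RefSeq (GRCm38.p6) gave symbols for 22244 of 23839 accessions. Of 59305 spots per array, 47.0 to 76.5% were well above background in Cy5 and 54.4 to 75.6% in Cy3, and none was saturated.

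Ratios were tested in 1 limma fit (lmFit, eBayes) with a mean per group and 4 residual degrees of freedom, adjusted by Benjamini-Hochberg over all genes (threshold 0.05). SE is that of the fit. Levels were log2 intensity after quantile normalization of average intensities between arrays (limma's Aquantile), and the Cdk6-/- channel was tested in its own fit. Wild-type pools were given as values. Array numbers follow deposition order and pair nothing. By rule, genes named beyond the members were at most 5 per list by the smallest adjusted p of the untreated or polyI:C ratio. Those of nearest ratios, those marked as named after their values were seen, and those flagged for their difference between treatments were added. The alternatives were other scalings, filters and probe summaries, array weights, slide as a block, and arrays left out. The fits were tested on simulated data.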

Additional observations from a re-analysis of the deposited data

Results flagged for a closer look

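Listed genes stood out because the Cdk6-/- to wild-type ratio differed between polyI:C and untreated arrays by the limma test of that difference, with adjusted p over all genes. In the myeloid list, Spi1 had 0.34 with polyI:C and -1.24 untreated (difference 1.59, SE 0.26, adjusted p 0.0190), Cebpe had 0.87 with polyI:C and -0.87 untreated (1.75, SE 0.36, adjusted p 0.0436) and Cebpa had 0.67 with polyI:C and -0.42 untreated (1.09, SE 0.23, adjusted p 0.0461). Among EGR targets, Id2 had 0.77 with polyI:C and -0.79 untreated (1.56, SE 0.27, adjusted p 0.0214), Id3 had 1.42 with polyI:C and -0.47 untreated (1.89, SE 0.34, adjusted p 0.0263) and Ptgs2 had 0.96 with polyI:C and -0.97 untreated (1.93, SE 0.38, adjusted p 0.0366). All 6 were higher with polyI:C, where 1.60% of all genes were called in that direction. Without polyI:C array 3 the 6 differences were 1.06 to 2.17, and without both low-Xist arrays 1.13 to 2.55, with none past the threshold. Of all genes, 6 passed for the difference without polyI:C array 3 and none without the low-Xist arrays. With slide as a fixed block no gene passed for the difference by limma, where 4437 had an unadjusted p under 0.05. Under median centring Spi1, Id2, Id3 and Ptgs2 passed, and Cebpa (0.92, adjusted p 0.162) and Cebpe (1.53, adjusted p 0.0654) did not. Granulocyte and monocyte markers also had higher median ratios with polyI:C than untreated, as given with the members. So did markers of B cells (0.05 with polyI:C and -1.59 untreated) and of endothelial and stromal cells (-0.11 with polyI:C and -1.08 untreated). The same held for mast cells and basophils (0.16 with polyI:C and -0.98 untreated) and megakaryocytes (0.32 with polyI:C and -0.46 untreated). For the difference, 4 of 11 granulocyte, 1 of 11 monocyte and macrophage and 2 of 9 B cell markers passed. So did 2 of 9 endothelial and stromal and 2 of 8 megakaryocyte markers, all of these calls being higher with polyI:C. None of 5 mast cell and basophil markers passed. Markers of T and NK cells had medians of 0.13 with polyI:C and 0.04 untreated. Those of HSCs (-0.07 with polyI:C and 0.21 untreated) and erythroid cells (-1.12 with polyI:C and -0.41 untreated) went the other way. No marker of these last lists passed for the difference. The part of such cells in these values was not tested. None of the 5 EGR and NAB genes passed for the difference.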

How the results depend on the processing

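The untreated Egr1 ratio passed under all alternatives run (1.37 to 1.92, leave-one-out 1.37 to 1.502). The Egr1 polyI:C ratio no longer passed with both arrays low in Xist left out (1.23), with the deposited value table (1.39) or processed signals (1.39), and was 1.23 to 1.51 leaving out 1 array. The count of members past the threshold after polyI:C, 2 as reported, was 0 in those 3 settings, 1 without the dim-probe filter and 0 to 3 leaving out 1 array. It was 3 with median centring, with array weights and with the stricter filter on dim probes. In a fit of the polyI:C arrays only it was 2, Egr1 and Egr2. The Egr3 polyI:C call also ended without the dim-probe filter (adjusted p 0.0644), with the deposited table (0.106) or processed signals (0.103), in a fit of the polyI:C arrays only (0.0739), without low-Xist arrays (0.104), and without polyI:C array 1 (0.116) or 2 (0.108) or untreated array 3 (0.0585). Uncalled values near 0 changed sign or size. Egr1 with polyI:C minus untreated was -0.36 within slide 2 (leave-one-out -0.196 to 0.0823), and its Cdk6-/- level was 0.10 with no normalization between arrays and 0.14 within slide 1 (-0.241 to 0.0286). The Cdk6-/- level with array weights, without low-Xist arrays and with slide as a fixed block was -0.10, -0.15 and -0.17 for Egr3 (leave-one-out -0.17 to 0.58) and 0.0619, 0.29 and 0.29 for Nab1 (-0.68 to 0.16). That of Nab2 was -0.0783 with array weights and -0.0922 with the mean of probes (-0.0537 to 0.54). The Nab1 polyI:C ratio was 0.13 with array weights, 0.12 without low-Xist arrays and 0.22 with median centring (-0.19 to 0.12). Its difference was -0.0275 with the deposited table, -0.0275 with processed signals and -0.0658 with median centring (-0.15 to 0.23), and its untreated ratio was 0.28 with median centring (-0.24 to 0.11). Nab2 untreated was 0.0928 with the mean of probes. The cause was not tested.

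Calls over all genes after polyI:C, 222 as reported, were 0 without low-Xist arrays, 7, 21 and 218 without polyI:C array 1, 2 or 3, 34 with processed signals, 2571 with median centring and 2741 with array weights. Untreated calls, 2944 as reported, were 1377 to 3427 leaving out 1 array, 1639 without low-Xist arrays and 6196 with median centring. Median centring moved the median of all genes to 0.21 after polyI:C and 0.30 untreated, and relative to it Egr1 was 1.59 after polyI:C and 1.62 untreated. The difference gave 409 calls, 1389 with array weights, 6 without polyI:C array 3 and 0 with slide as a fixed block, where 4437 genes had an unadjusted limma p under 0.05. The level in Cdk6-/- cells gave 37 calls, and 0 to 561 under the alternatives. Scalings of the wild-type pools and single Nab2 probes, within-slide values of genes other than Egr1, and the settings given for listed genes were chosen after seeing the data. No paired analysis was possible because the labels give the groups no shared replicate numbers.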
